A study of Mus musculus with 16 samples.

Results

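The 10 genes described here encode the apolipoproteins and lipid-handling proteins with which an enterocyte packages and exports fat: Apoa1, Apoa4, Apob, Apoc3, Mttp, Fabp1, Fabp2, Pdzk1, Lpl and Cd36. They are 10 of 18193 genes named on the Mouse 430 2.0 GeneChip, where 20 probe sets are annotated to them, and all 20 were taken. The genes were chosen with their signals in germ-free and colonized mice already known, so their differences from the germ-free state are given as a description. Where the calls of the fit over all probe sets are counted for them against GF, the counts are part of that description and support nothing. Comparisons between the colonized states, and all comparisons of related genes, were tested. These tests and the lists of related genes were also chosen with earlier results of the data known, so their p-values are not independent support.

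Laser-captured epithelium from the cecum of adult NMRI mice was profiled in 4 states: germ-free (GF), mono-associated for 10 days with B. thetaiotaomicron (Bt) or with B. longum (Bl), and co-colonized with both for 10 days (Bt/Bl). All mice ate a standard polysaccharide-rich chow, and the GF controls are described as age-matched males. RNA of 4 mice was pooled for each state, and 2 separate amplifications of that pool were hybridized. GeneChips 9128 and 9129 carried GF, 9130 and 9443 carried Bt, 9134 and 9135 carried Bl, while 9132 and 9133 carried Bt/Bl. The spread between the members of a pair is therefore technical, each state is 1 pool, and a test compares pools rather than mice.

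Absorbed fatty acids are taken up at the brush border, where Cd36 is a fatty acid translocase, bound in the cytosol by Fabp1 and Fabp2, and re-esterified to triglyceride. Mttp, the microsomal triglyceride transfer protein, loads that lipid onto Apob, the structural protein of the chylomicron, which also carries Apoa1, Apoa4 and Apoc3. Lpl releases fatty acids from circulating particles, and Pdzk1 is a scaffold that anchors transporters and the lipoprotein receptor Scarb1 at the membrane. Most of this machinery is known from the small intestine, and the cecum normally takes little part in fat absorption.

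The signals of Apoa1, Apob and Pdzk1 stood together, as described next, and the sequences just upstream of these 3 genes are shown beside that of Fabp1, which did not follow them. RefSeq promoters of build GRCm38.p6 were at hand for 8 of the 10 genes, and the 250 bases before the start site are given, 5′ to 3′ on the gene's strand. The windows are chr9:46228380-46228629 for Apoa1, chr12:7977427-7977676 for Apob, chr3:96829815-96830064 for the more upstream of 2 Pdzk1 promoters and chr6:71199629-71199878 for Fabp1, all on the plus strand. Capitals mark matches on either strand to any of 4 motifs. AGGTCA is the half-site bound by nuclear receptors, and CAAAGTCC is a core of the motif of HNF4, a main regulator of lipoprotein genes. GTTAAT is the half-site of HNF1, a second regulator of enterocyte genes, and TATAAA is the TATA box. None of the matches shown overlaps another.
Apoa1: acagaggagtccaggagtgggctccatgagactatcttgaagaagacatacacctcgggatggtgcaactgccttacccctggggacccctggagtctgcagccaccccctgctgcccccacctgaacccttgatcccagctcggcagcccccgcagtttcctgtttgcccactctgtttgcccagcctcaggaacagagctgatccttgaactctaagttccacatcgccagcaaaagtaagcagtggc
Apob: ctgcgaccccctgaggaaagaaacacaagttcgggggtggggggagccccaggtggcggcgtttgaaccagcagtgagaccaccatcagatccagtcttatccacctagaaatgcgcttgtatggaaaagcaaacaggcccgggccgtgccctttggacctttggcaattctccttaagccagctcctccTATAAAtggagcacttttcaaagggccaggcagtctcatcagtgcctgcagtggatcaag
Pdzk1: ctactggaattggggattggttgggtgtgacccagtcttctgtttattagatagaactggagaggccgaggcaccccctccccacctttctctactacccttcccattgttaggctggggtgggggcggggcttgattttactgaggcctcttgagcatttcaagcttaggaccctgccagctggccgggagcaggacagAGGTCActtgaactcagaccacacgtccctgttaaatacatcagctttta
Fabp1: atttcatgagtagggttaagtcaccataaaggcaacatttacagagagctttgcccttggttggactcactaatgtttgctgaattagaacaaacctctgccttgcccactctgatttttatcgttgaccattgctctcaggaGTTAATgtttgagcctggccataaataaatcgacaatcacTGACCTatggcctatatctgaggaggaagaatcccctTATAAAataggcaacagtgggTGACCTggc

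Apob held 1 TATAAA, 60 bases before the start, and Pdzk1 1 AGGTCA, 50 bases before it. Fabp1 held 2 matches to AGGTCA, 1 to GTTAAT and 1 to TATAAA, and the Apoa1 window held none of the 4. Of the windows not printed, those of Apoa4, Mttp, Fabp2 and the other Pdzk1 promoter also held none, and that of Cd36 held 1 AGGTCA. The windows shown therefore do not set apart genes that did and did not follow Apoa1. Among 32851 promoter windows of the same length, 14% held AGGTCA, 1.2% CAAAGTCC, 6.43% GTTAAT and 12.4% TATAAA. The absence of a match says only that these letters are not in the window. Apoa1, Apoc3 and Apoa4 are immediate neighbours, in that order, on chromosome 9, so the description of the apolipoproteins below includes genes that lie side by side and did not share a pattern.

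The deposited values are linear signals. Values under 144.7, the 25th percentile of the whole table, were raised to that floor, and testing was limited to probe sets above the table's median of 583.1 in both amplifications of some state. Of the 20 probe sets 15 passed, representing 9 genes. No probe set of Cd36 passed, nor did 1417761_at of Apoa4 or 1431056_a_at of Lpl. A fold change is a ratio of geometric means of floored signals, and its standard error (SE) is given on the log2 scale from 1 limma fit over all 8 GeneChips. A probe set counted as called at an adjusted p under 0.05. Levels are compared only within a probe set, and precision is limited by having 2 GeneChips a state.

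Markers of colonic and small intestinal cells were looked at first. Slc26a3, the chloride exchanger of colonocytes, gave signals of 254557 to 467918, and 13 of 13 measured colonocyte markers passed the filter. So did 14 of 18 measured markers of small intestinal enterocytes, and 12937 of all 18193 named genes had a tested probe set. These counts alone do not tell cecum from small intestine. Of the markers of small intestinal absorptive cells, Lct, Rbp2 and Slc2a2 did not exceed 1046 on any GeneChip, whereas Mep1a (26663 to 41084), Mep1b (54555 to 99252) and Slc5a1 (6192 to 11291) were bright in all 4 states. The GF pool stood apart from the other 3 in ways that bear on every comparison with it. Fabp6, the ileal bile acid-binding protein, had signals of 68029 and 95108 in GF and 1179 to 1798 elsewhere. Xist had 17157 and 22762 in GF against 3753 to 11176, and Eif2s3y, a Y-linked gene, 71.3 and 614.4 against 3201 to 5657, which goes against the description of the GF controls as male. The 3′ to 5′ signal ratio of the Gapdh control was 5.66 to 7.26 in GF and 8.93 to 17.6 elsewhere, and that of the beta-actin control went the other way, 36.9 to 38.8 in GF and 21.4 to 36.3 elsewhere. The part of these differences in what follows was not tested, and the GF state and the GF pool cannot be told apart. In a tissue sample, fewer cells of a type and less RNA per cell cannot be told apart either.

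Apoa1, the main protein of high-density lipoprotein, was far higher in GF than in any colonized state. By its brightest probe set, 1419233_x_at, the signals were 39656 and 34578 in GF, 2245 and 2684 in Bt, 1321 and 1563 in Bl, with Bt/Bl at 936.2 and 987.3. No 2 states overlapped, and the levels ran from GF down through Bt and Bl to Bt/Bl. The fold difference from GF was 15.1, 25.8 and 38.5 in Bt, Bl and Bt/Bl (SE 0.35 for each). The other 3 probe sets of Apoa1 showed the same gap to GF. In GF they ranged from 28418 to 37554, and in the colonized states from 592.7 to 3578. Over all 4 probe sets the fold difference from GF was between 9.66 and 16.4 in Bt, between 10.9 and 25.8 in Bl and between 16.3 and 38.6 in Bt/Bl. The order of the colonized states did not repeat in all of them, since Bl overlapped Bt/Bl by 1438840_x_at and Bt by 1419232_a_at. Across the 8 GeneChips the log2 signals of the 4 probe sets correlated with r from 0.95 to 0.99, over points that are pairs of amplifications of 4 pools. Names ending in _x_at denote probe sets with some probes that may match other transcripts, which applies to 3 of the 4.

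Pdzk1, the scaffold, was measured by 1 probe set, 1431701_a_at. It had signals of 2305 and 1863 in GF, and all 6 other GeneChips lay below the floor, between 38.7 and 95. The colonized states therefore have only an upper bound, and Pdzk1 was at least 14.3-fold higher in GF (SE 0.64). No order among the colonized states can be read from values under the floor.

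Apob, the chylomicron's structural protein, was bright in every state. Its main probe set, 1455593_at, read 86650 and 81167 in GF, 36918 and 47778 in Bt, 28165 and 35409 in Bl, with Bt/Bl at 21192 and 25030. As for Apoa1, no 2 states overlapped, in the same order. The fold difference from GF was 2, 2.66 and 3.64 in Bt, Bl and Bt/Bl (SE 0.22 for each). The dimmer probe set of Apob, 1457554_at, had 2904 and 745 in GF and 123.3 to 1443 elsewhere, so its GF pair overlapped the other states, and the 2 probe sets correlated with r = 0.36 over the 8 GeneChips.

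Lpl, the lipase, differed in that the co-colonized state stood alone. By 1415904_at the signals were 9111 and 9731 in GF, 7390 and 5928 in Bt, 4536 and 7912 in Bl, with Bt/Bl at 2355 and 2576. GF was highest, the mono-associated states overlapped each other, and Bt/Bl was lowest without overlap. The fold difference from GF was 1.42, 1.57 and 3.82 in Bt, Bl and Bt/Bl (SE 0.32 for each). The dim second probe set, 1431056_a_at, was below the filter and did not repeat this order. It had 160.5 and 391.3 in GF, 542.6 and 741.3 in Bt, 341 and 592.5 in Bl, with Bt/Bl at 491.6 and 220.7. The 2 probe sets correlated with r = 0.06 over the 8 GeneChips. Lpl is also made by fat and muscle cells and by macrophages. Of 9 adipocyte markers 7 had a probe set and 5 passed the filter, and the summed signal of the list was 3535 to 6788 in GF, 4847 to 6120 in Bt, 3756 to 3876 in Bl, with Bt/Bl at 4421 to 5171. Adipoq, the defining adipokine, was below 605 throughout. Retn, another adipokine, had 891.7 and 1380 in GF and 108.2 to 319.8 elsewhere. The macrophage list summed to 21842 to 23042 in GF, 27806 to 32830 in Bt, 18556 to 23889 in Bl, with Bt/Bl at 30500 to 31198. The fibroblast and smooth muscle list summed to 30402 to 37428 in GF, 31232 to 31668 in Bt, 15172 to 20323 in Bl, with Bt/Bl at 19526 to 19697. The part of these cells in the signal of Lpl was not tested.

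**Figure D1:**
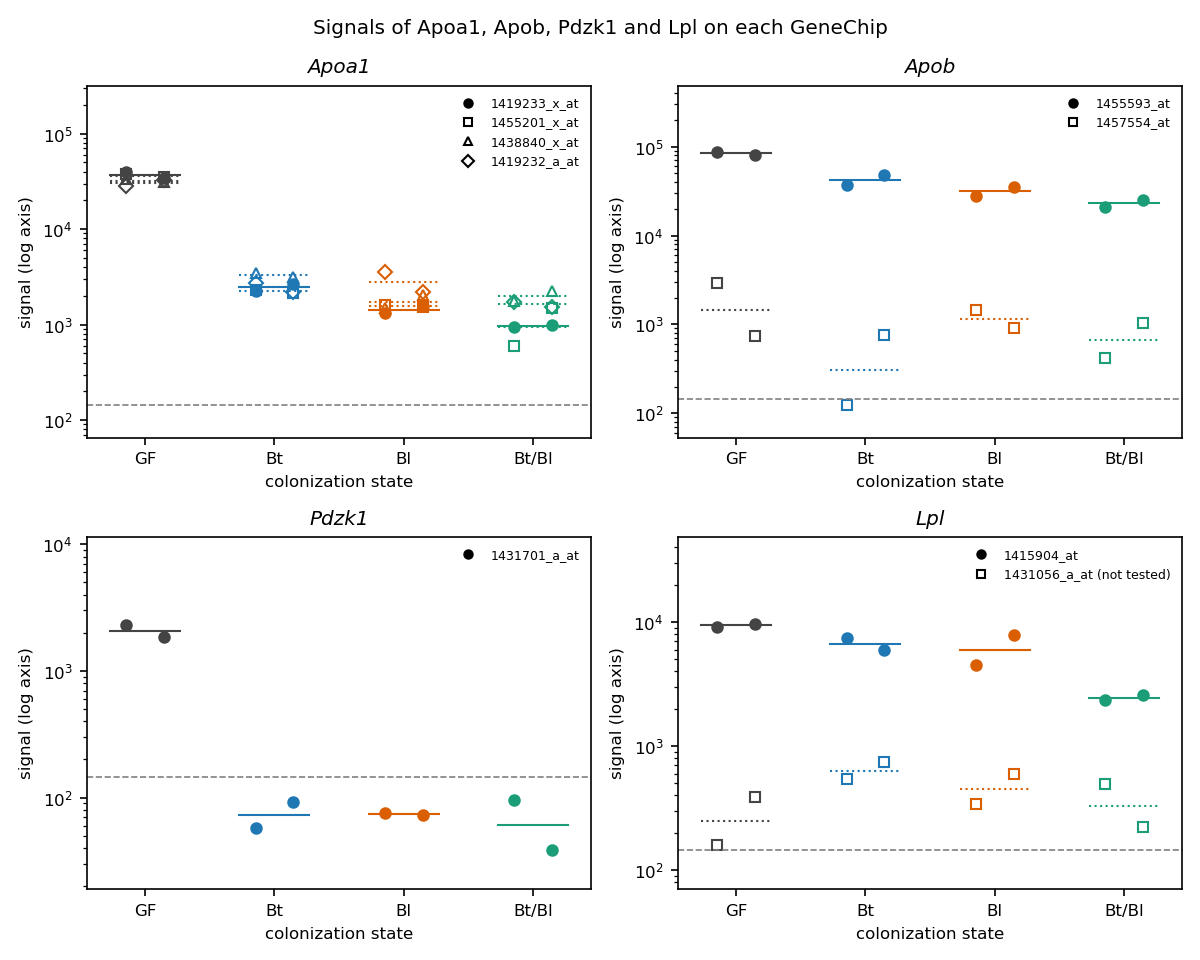
Signals of Apoa1, Apob, Pdzk1 and Lpl (y axis, log scale) on the 2 GeneChips of each colonization state (x axis). Each symbol shape is a probe set, filled for the brightest, short lines (solid for the brightest, dotted for the others) are geometric means of a pair before flooring (n = 2 amplifications of 1 pool) and the dashed line is the floor at 144.7. Both GF GeneChips lie above the other 6 for Apoa1 in all 4 probe sets, and Pdzk1 is under the floor in every colonized state.

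Apoa4, an apolipoprotein that rises with fat absorption, did not share the pattern of Apoa1. Its tested probe set, 1436504_x_at, gave 5279 and 3067 in GF, 10119 and 7832 in Bt, 3566 and 508.9 in Bl, with Bt/Bl at 1224 and 1124. Bt lay above GF and Bt/Bl below it, while the 2 GeneChips of Bl were far apart. The difference from GF was 2.21-fold higher in Bt (SE 0.65), 2.99-fold lower in Bl and 3.43-fold lower in Bt/Bl. The second probe set, 1417761_at, was below the filter, with a highest value of 1790 on 1 Bt GeneChip and 39.4 to 421.9 on all GeneChips outside Bt. Apoc3, which restrains lipases, had signals of 1301 and 867.7 in GF, 1491 and 822.7 in Bt, 1506 and 126.6 in Bl, with Bt/Bl at 702.2 and 973.3. All states of Apoc3 overlapped GF, with SE 1.05 for each difference.

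The 2 probe sets of Mttp went opposite ways, so no direction is given for this gene. By 1419400_at the signals were 1189 and 1222 in GF and 49.1 to 192.9 elsewhere, at least 7.21-fold lower in Bt, 8.27-fold in Bl and 8.33-fold in Bt/Bl (SE 0.59), with at least 1 GeneChip of each colonized state under the floor. By 1419399_at they were 99.1 and 734 in GF, 1121 and 941 in Bt, 1688 and 1810 in Bl, with Bt/Bl at 1453 and 1334. The GF pair was thus above all others by the first probe set and below all others by the second, although it differed within itself in the second. Their log2 signals correlated with r = -0.82 over the 8 GeneChips.

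The fatty acid-binding proteins did not follow Apoa1 either. Fabp2, the intestinal form, had signals of 647554 and 505160 in GF, 659971 and 604508 in Bt, 1026032 and 760796 in Bl, with Bt/Bl at 595950 and 628471. All states other than Bl overlapped GF, and Bl was 1.54-fold higher (SE 0.34). Fabp1, the liver form, had 40.9 and 522.2 in GF, 1714 and 3781 in Bt, 384.7 and 979.4 in Bl, with Bt/Bl at 500 and 515.9 by 1448764_a_at. Bt was higher than all other states by this probe set, 9.26-fold above GF with SE 1, which 1 GF GeneChip under the floor makes a lower bound. That log2 fold change of 3.21 was 2.29 without GeneChip 9128 of GF and 4.14 without 9129, and this probe set passed the filter only through Bt. By 1417556_at Fabp1 read 744 and 700.3 in GF and 1135 and 934.3 in Bt, a difference of 1.43-fold (SE 1.02). The 3 probe sets of Cd36 stayed between 27.4 and 1162, and in none of them did the GF pair lie above or below all other GeneChips.

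**Figure D2:**
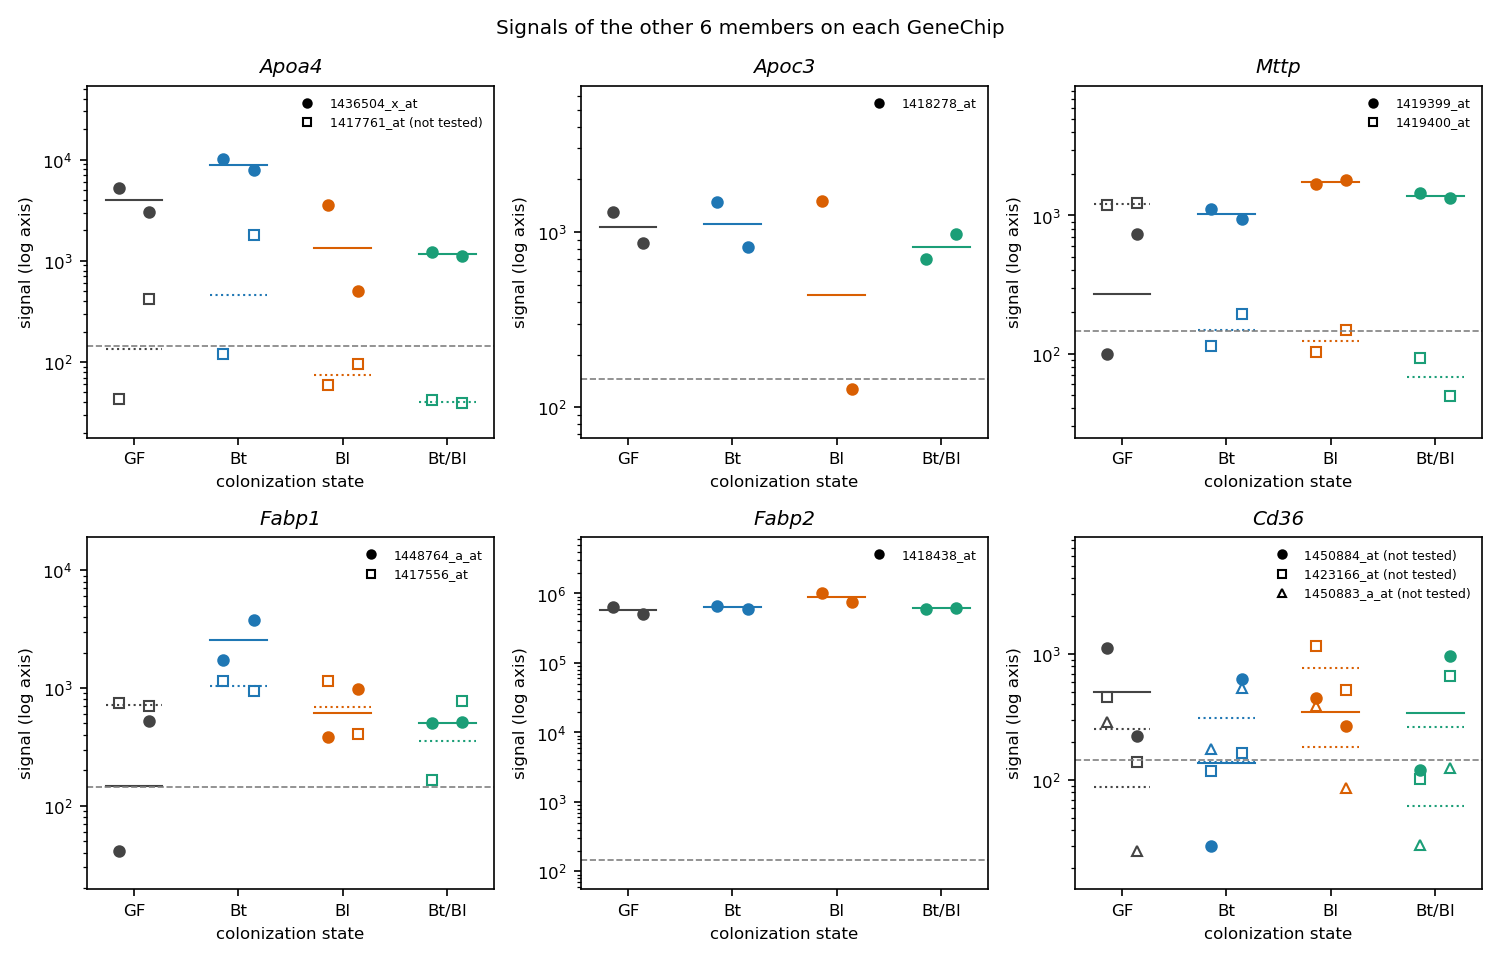
Signals of the other 6 genes (y axis, log scale) on the 2 GeneChips of each colonization state (x axis), with symbol shapes for probe sets, short lines (solid for the brightest, dotted for the others) for geometric means of a pair before flooring (n = 2) and a dashed line at the floor of 144.7. Apoa4 is higher in Bt than in the other states by its bright probe set, and the 2 probe sets of Mttp run opposite ways.

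Counted over the 15 tested probe sets, those called lower than GF were 5, 6 and 7 in Bt, Bl and Bt/Bl, and 0 were called higher. Of all 24865 tested probe sets, 0.0804%, 0.0804% and 0.0965% were called lower in Bt, Bl and Bt/Bl. The 5 in Bt were the 4 of Apoa1 and that of Pdzk1, with 1455593_at of Apob added in Bl and 1415904_at of Lpl added in Bt/Bl. Both GF GeneChips lay above all 6 others for 8 of the 15 probe sets, against 4.04% of all tested, and below all 6 for 1, against 4.4%. By the brightest probe set of each gene, 4 of the 9 tested genes (Apoa1, Apob, Pdzk1 and Lpl) had GF above all others, against 4.42% of 12937 genes, and 1 (Mttp) had it below, against 4.34%. The members were chosen by these differences from GF, and nothing is read from the counts. Pdzk1 and 1419400_at of Mttp also passed the filter only through GF, where they were high. By genes, 2, 3 and 4 were called in Bt, Bl and Bt/Bl, and without GeneChip 9129 of GF the count in Bt was 0. The median log2 difference of the 15 probe sets was -1, -1.41 and -1.86 in Bt, Bl and Bt/Bl, and of all tested probe sets 0.02, 0.05 and 0.01.

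Apolipoproteins are also made in the small intestine and the liver, and the markers of those tissues are given beside these values. The list of small intestinal enterocyte markers summed to 241628 to 282193 in GF and 137234 to 181520 elsewhere. Fabp6 alone made up 68029 and 95108 of the GF sums and 1179 to 1798 of the others. Mep1b, also bright, had 75725 and 80390 in GF and 54555 to 99252 elsewhere. The gap in the sum is therefore not one of the whole list. Of the list's 18 genes with a probe set 14 were tested, and 3, Enpep, Mep1a and Fabp6, had GF above all others. Enpep, an aminopeptidase, had 11218 and 14539 in GF and 3348 to 9567 elsewhere. Slc10a2, the bile acid transporter of the ileum, had 860.5 and 2817 in GF and 635.2 to 1348 elsewhere, and the signals of Slc5a1 overlapped. The hepatocyte list summed to 16150 to 16517 in GF and 3465 to 10783 elsewhere. Its brightest gene on every GeneChip was Ttr, the thyroxine carrier, at 13592 to 15250 in GF and 2000 to 7935 elsewhere. Alb, the defining hepatocyte transcript, was at 283.9 and 395 in GF and 236.2 to 1213 elsewhere. The B and plasma cell list, led by Igha, summed to 112275 to 128615 in GF and 18702 to 59874 elsewhere. The part of these cells in the differences of Apoa1, Apob and Pdzk1 was not tested.

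Whether the lipid export genes differed between the colonized states was tested next. In none of the 3 comparisons was a member called, where 0.0483% of all tested probe sets were called in Bt/Bl against Bt, 0.0563% in Bt/Bl against Bl and 0.0442% in Bl against Bt. By the brightest probe set of each gene the shares called were 0.085%, 0.085% and 0.0541%. At an unadjusted p under 0.05 from limma, 7 of 15 probe sets were lower in Bt/Bl than in Bt, 2 lower in Bt/Bl than in Bl and 3 lower in Bl than in Bt, and none was higher, while 10.5%, 11.8% and 11.9% of all tested probe sets had such a p in either direction. The median log2 difference of the members was -0.76, -0.46 and -0.41, and that of all probe sets -0.01, -0.04 and 0.01. The 7 probe sets lower in Bt/Bl than in Bt included several of Apoa1, which are not separate genes. They also included 1448764_a_at of Fabp1, which passed the filter only through Bt, where it was high. Signals of the colonized states were known when the genes were chosen, so nothing is read from these counts and medians.

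The co-colonized state was first set against B. thetaiotaomicron alone. Lpl was 2.69-fold lower in Bt/Bl than in Bt (log2 fold change -1.43, SE 0.32, 95% confidence interval -2.1 to -0.75, adjusted p = 0.1403). Apoa4 was 7.59-fold lower (log2 fold change -2.92, SE 0.65, interval -4.32 to -1.53, adjusted p = 0.1403), with no overlap of the GeneChips. Apoa1 was 2.55-fold lower by its brightest probe set (adjusted p = 0.1922) and 1.5 to 2.36-fold lower by the other 3. Apob was 1.82-fold lower (interval of the log2 difference -1.34 to -0.39, adjusted p = 0.1922). Fabp1 was 5.01-fold lower by 1448764_a_at (SE 1, adjusted p = 0.4241). For Fabp2 the difference was near 0, with an interval from -0.77 to 0.67 on the log2 scale, and for Apoc3 the interval was -2.66 to 1.82. None of these passed the threshold.

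Between Bt/Bl and B. longum alone, Lpl was again the gene with the lowest p, 2.43-fold lower in Bt/Bl (log2 fold change -1.28, SE 0.32, interval -1.95 to -0.61, adjusted p = 0.1589). Apoa1 had a log2 fold change of -0.58 (interval -1.32 to 0.16) and Apob of -0.46 (interval -0.93 to 0.02). Apoa4 did not separate these states, with an interval of -1.59 to 1.19. Between the mono-associated states, Apoa4 was 6.61-fold lower in Bl than in Bt (log2 fold change -2.72, SE 0.65, interval -4.12 to -1.33, adjusted p = 0.1439). The size of this difference rested on the 2 unlike Bl GeneChips, with a log2 fold change of -4.13 without 9134 and -1.32 without 9135. Apoa1 differed by -0.77 by its brightest probe set (interval -1.51 to -0.04, adjusted p = 0.3917) and by -0.94 by 1438840_x_at (interval -1.61 to -0.26, adjusted p = 0.2352). Lpl differed by -0.14 (interval -0.82 to 0.53), Apob by -0.41 (interval -0.89 to 0.06) and Fabp1 by -2.05 (interval -4.18 to 0.07). In the order GF, Bt, Bl, Bt/Bl that Apoa1 and Apob shared, no pair of neighbours among the colonized states passed the adjusted threshold. Their GeneChips did not overlap, and of the 4 unadjusted intervals between such neighbours by brightest probe sets that of Apoa1 in Bl against Bt left out 0. A p above the threshold does not show that the states were alike.

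**Figure D3:**
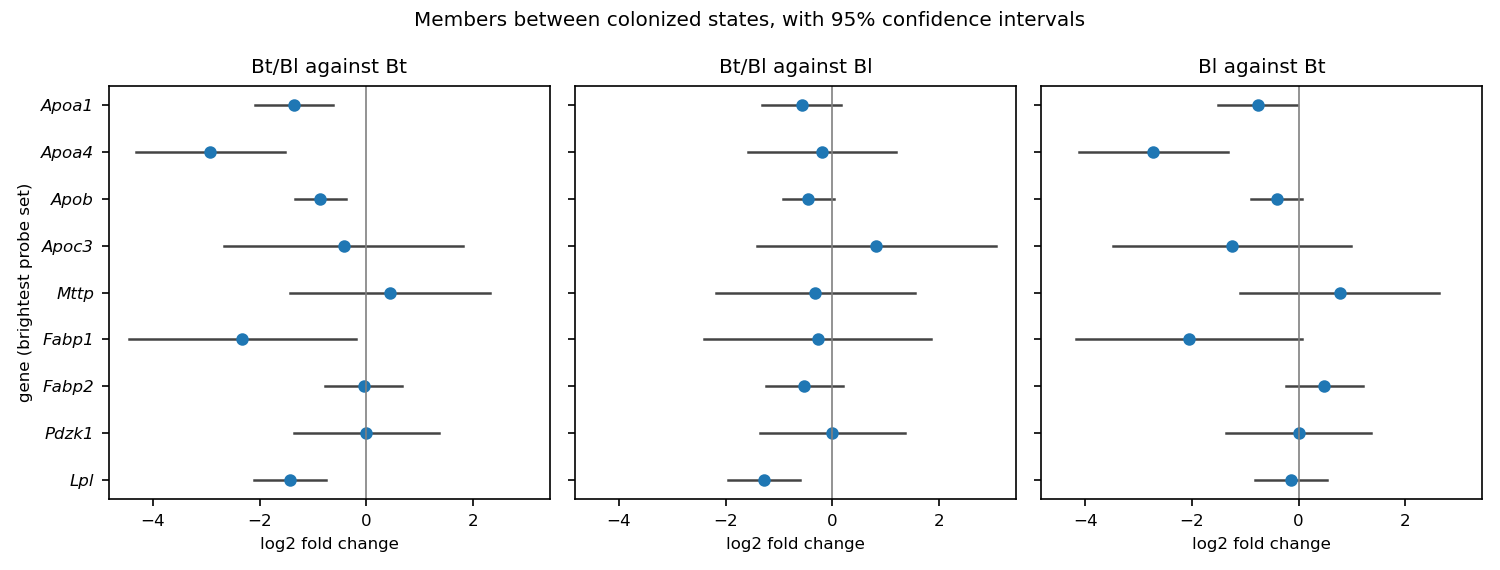
Log2 fold change (x axis) of each of the 9 tested genes (y axis, brightest probe set) in the 3 comparisons between colonized states, as points with 95% confidence intervals from limma. Most points lie left of 0 in Bt/Bl against Bt, with Apoa4 at -2.92 and Lpl at -1.43, and Pdzk1 is at 0 because it was under the floor in all 3 states.

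The rest of the lipid pathway was examined through 7 lists with 137 genes, of which 126 had a probe set and 115 were tested. The lists were chosen with earlier results of these data known, so their counts are given as a description. Of the 115, 1 gene was called higher in Bt than in GF and 1 lower in Bt/Bl, with 0 in Bl and 0 in the 3 comparisons between colonized states. Of all 12937 genes, 0.216%, 0.17% and 0.263% were called in Bt, Bl and Bt/Bl. At an unadjusted p under 0.05 from limma 19, 16 and 14 of the listed genes differed from GF in Bt, Bl and Bt/Bl, which was 16.5%, 13.9% and 12.2%, against 9.09%, 11.2% and 7.58% of all genes. Between the colonized states 14 listed genes in Bt/Bl against Bt, 12 in Bt/Bl against Bl and 8 in Bl against Bt had such a p, or 12.2%, 10.4% and 6.96%, against 10.3%, 11.4% and 10.9% of all genes.

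The gene called in Bt was Plin2, which coats cytosolic lipid droplets. Its signals were 22937 and 23931 in GF, 49948 and 52957 in Bt, 32947 and 40962 in Bl, with Bt/Bl at 41439 and 41384. GF was lowest without overlap, and Plin2 rose 2.2-fold in Bt (log2 fold change 1.13, SE 0.21, adjusted p = 0.0407), with log2 fold changes of 0.65 in Bl (adjusted p = 0.2324) and 0.82 in Bt/Bl (adjusted p = 0.2277). Of 18 alternative settings 2 kept the call, with log2 fold changes between 0.93 and 1.23, and none of the 8 fits that left out 1 GeneChip did. The gene called in Bt/Bl was Slc9a3, the sodium-proton exchanger of the brush border, at 28279 and 23817 in GF, 26732 and 13163 in Bt, 20487 and 20141 in Bl, with Bt/Bl at 6844 and 8193. It fell 3.47-fold (log2 fold change -1.79, SE 0.29, adjusted p = 0.0122), and 5 of 18 alternative settings kept the call, 1 of them a fit that left out 1 GeneChip (9443 of Bt). Like Lpl by 1415904_at, Slc9a3 was lowest in Bt/Bl without overlap. Its differences in limma from Bt (-1.32, adjusted p = 0.1403) and from Bl (-1.44, adjusted p = 0.1078) did not pass.

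Triglyceride synthesis and lipid droplets formed the list with that call, 1 of 22 tested genes, and its median log2 fold change was 0.04, 0.18 and 0.11 in Bt, Bl and Bt/Bl, against 0.01, 0 and 0 over all genes. Dgat2, a terminal enzyme of triglyceride synthesis, had 2196 and 4842 in GF and 6489 to 10882 elsewhere, with log2 fold changes of 1.48, 1.1 and 1.72 in Bt, Bl and Bt/Bl (adjusted p = 0.1439, 0.2160 and 0.0595). Its counterpart Dgat1 had 8729 and 8050 in GF and 4264 and 4279 in Bt/Bl (log2 fold change -0.97, adjusted p = 0.3015). In this list 4 genes, Dgat2, Lpin2, Plin2 and Mgll, had GF below all others, against 4.34% of all genes, and 2, Dgat1 and Gpat4, above, against 4.42%.

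Other apolipoproteins and lipoprotein proteins did not follow Apoa1. Of 16 listed genes 11 were tested and 0 called, with a median log2 fold change of 0.34, 0.27 and -0.08 in Bt, Bl and Bt/Bl. Apoa2, the second protein of high-density lipoprotein, had 345.6 and 34.5 in GF and 845.6 to 1945 elsewhere (log2 fold changes of 2.3, 2.79 and 2.31, adjusted p = 0.3947, 0.2327 and 0.5436). Apoc2, the activator of Lpl, had 13316 and 11229 in GF, 22506 and 17937 in Bt, 30867 and 24517 in Bl, with Bt/Bl at 17266 and 15236. Its log2 fold change was 1.17 in Bl (SE 0.23, adjusted p = 0.0634). Saa1 and Saa2, acute-phase proteins that ride on lipoproteins, also had GF below all others. Thus 4 of the 11 genes, Apoa2, Apoc2, Saa1 and Saa2, had GF lowest, against 4.34% of all genes, and 1, Apobr, had it highest, against 4.42%. Apoa2 and Saa2 passed the filter only through colonized states, where they were high, and Apobr only through GF. Nothing is therefore read from the places of Apoa2, Saa2 and Apobr. Saa2 was also measured by an _x_at probe set, some probes of which may match other transcripts. Whether these include Saa1 was not tested, so Saa1 and Saa2 may not be separate measures. Apoa5, Apoc4, Apoe, Apom and Apon did not pass the filter.

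The list of chylomicron assembly and secretion held the coat proteins and tethers that move the particle out of the endoplasmic reticulum. Of its 16 tested genes 0 were called and 0 had the GF pair outside the range of the other GeneChips, above or below. Its median log2 fold change was 0.09, -0.14 and -0.16 in Bt, Bl and Bt/Bl. Sar1b, the GTPase of chylomicron transport, had 31725 and 28482 in GF and 24913 to 43586 elsewhere. P4hb, the small subunit of the Mttp complex, had 33828 and 42121 in GF and 26460 to 40742 elsewhere. Bet1, a membrane fusion protein, had the largest difference from GF in the list, a log2 fold change of -1.37 in Bl (SE 0.58, adjusted p = 0.3729).

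Among genes of fatty acid and sterol uptake, 15 were tested and 0 called, with median log2 fold changes of -0.03, -0.01 and -0.12. Slc27a4, a fatty acid transport protein of enterocytes, had 7460 and 6486 in GF, 10994 and 11424 in Bt, 14024 and 10059 in Bl, with Bt/Bl at 5495 and 6432. It was lower in Bt/Bl than in Bl by 1 on the log2 scale (SE 0.26, adjusted p = 0.1715) and had a log2 fold change of -0.91 against Bt (adjusted p = 0.2387). Scarb1, the lipoprotein receptor that Pdzk1 binds, had 994.8 and 1002 in GF, 4465 and 1936 in Bt, 2954 and 1993 in Bl, with Bt/Bl at 1571 and 625.7 (log2 fold change 1.56 in Bt, SE 0.62, adjusted p = 0.4160, and 1.28 in Bl, adjusted p = 0.4464). Cav1, a protein of caveolae, had 3878 and 3082 in GF and 95.7 to 2784 elsewhere. Its difference from GF was the largest of the list, -3.07 in Bl (SE 0.82, adjusted p = 0.1690), with 1 Bl GeneChip under the floor.

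Lipases, receptors and their regulators gave 0 calls among 10 tested genes, with median log2 fold changes of 0.25, 0.25 and -0.21. In this list 1 gene, Sort1, had GF above all others, against 4.42% of all genes. Another 1, Lcat, had GF below all others, against 4.34%, and passed the filter only through colonized states. Angptl4, an inhibitor of Lpl, had 1583 and 64.9 in GF, 2565 and 2980 in Bt, 2350 and 587.3 in Bl, with Bt/Bl at 173.3 and 1568, and its states overlapped (log2 fold change 2.53 in Bt, SE 1.2, adjusted p = 0.5338). Vldlr, a receptor of triglyceride-rich particles, had 1363 and 1522 in Bt/Bl and 3242 to 4301 in Bl (difference -1.37, adjusted p = 0.2401). Gpihbp1, which anchors Lpl on endothelium, had 1261 and 261.2 in GF and 272.7 to 1607 elsewhere.

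Transcription factors known to act on these genes gave 0 calls among 23 tested, with median log2 fold changes of 0.19, 0.02 and -0.13. Hnf4a, a regulator of Apoa1, Apob and Mttp, had 119952 and 106287 in GF and 96165 to 126563 elsewhere. Its log2 fold changes of -0.06, 0.03 and -0.06 (SE 0.24) were near 0. Cdx2 had 18665 and 20002 in GF and 15681 to 23332 elsewhere. Gata5 had 629.9 and 1555 in GF and 44.2 to 579.4 elsewhere (log2 fold change -2.36 in Bt, SE 0.92, adjusted p = 0.3947), and was the 1 gene of the list with GF above all others. Gata5 passed the filter only through GF, where it was high, so nothing is read from its place above the others. Srebf2, the sterol sensor, had 56 and 306.4 in Bt/Bl against 587.1 to 1621 elsewhere (log2 fold change -2.15 against GF, SE 0.94, adjusted p = 0.6238).

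Partners of Pdzk1 and brush border scaffold proteins included Slc9a3, described above, as the 1 call among 18 tested genes. The median log2 fold change was -0.23, -0.11 and -0.2 in Bt, Bl and Bt/Bl. Slc26a6, an anion exchanger that binds Pdzk1, had 1428 and 780.2 in GF and 68.8 to 557.2 elsewhere, with log2 fold changes of -1.76, -2.87 and -2.57 (SE 0.76, adjusted p = 0.4723, 0.1690 and 0.3975). Ezr, which links the brush border to actin, had 32439 and 38337 in GF and 17039 to 28690 elsewhere (log2 fold change -0.96 in Bt, SE 0.21, adjusted p = 0.1342). These were the 2 genes of the list with GF above all others. Slc26a6 passed the filter only through GF, where it was high, so nothing is read from its place above the others. Both of its Bl signals, 80.3 and 77.7, were under the floor. Vil1, the core bundling protein of microvilli, had 84729 and 97350 in GF and 77623 to 106498 elsewhere, and Slc9a3r1, a scaffold related to Pdzk1, had 117958 to 166949 in GF and 95654 to 210687 elsewhere.

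**Figure D4:**
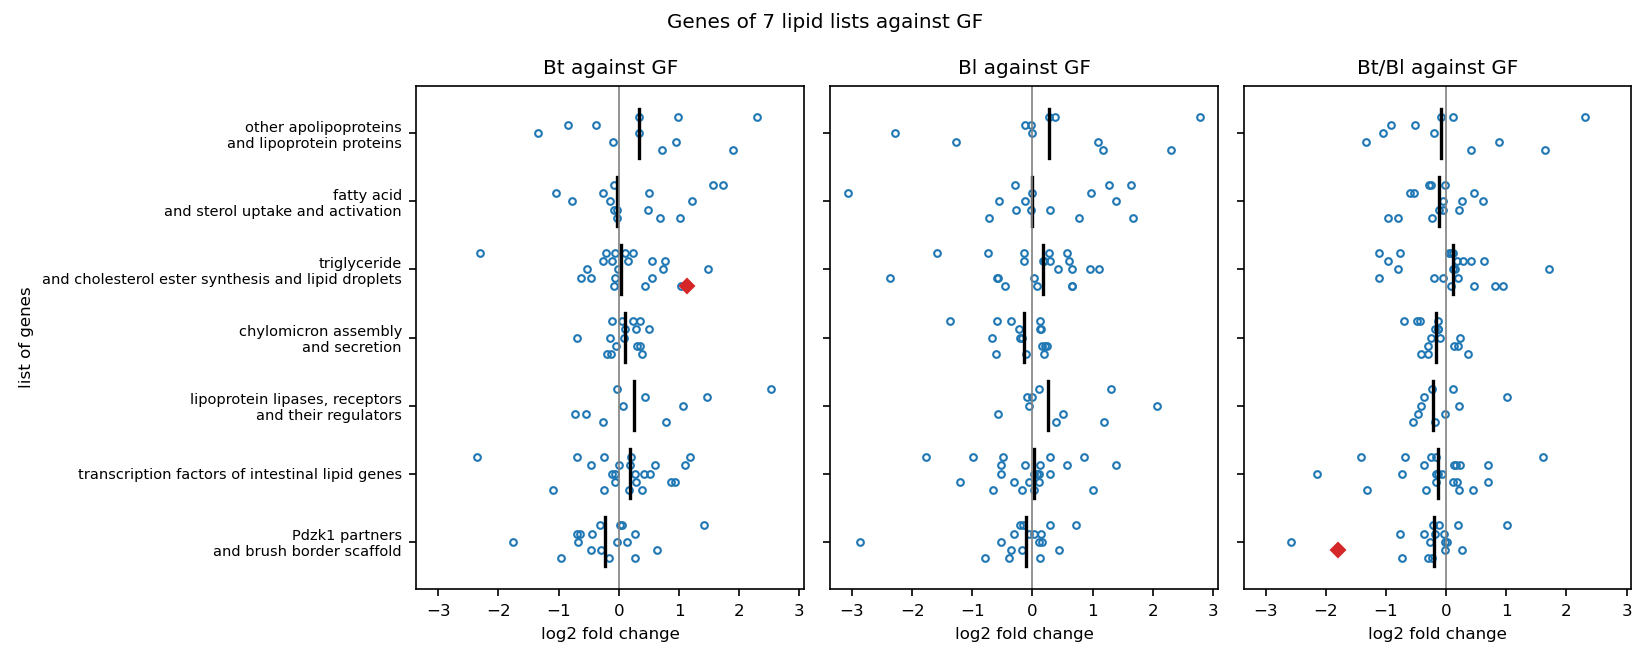
Log2 fold change against GF (x axis) of every tested gene in 7 lists (y axis) in Bt, Bl and Bt/Bl. Circles are genes that were not called, red diamonds are the called genes Plin2 (Bt) and Slc9a3 (Bt/Bl), and black bars are list medians, which lie between -0.23 and 0.34.

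The patterns of the members were also set against each other and against other genes, by Pearson's r of log2 signals over the 8 GeneChips, which are pairs from 4 pools. By brightest probe sets, Pdzk1 (r = 0.97) and Apob (r = 0.96) were most like Apoa1, followed by Lpl (0.74), Apoa4 (0.38) and Apoc3 (0.22). Fabp1 (-0.4) and Fabp2 (-0.44) ran the other way, as did Mttp by its brightest probe set, 1419399_at (-0.84). That probe set read 99.1, under the floor, on 1 GeneChip of GF. The other tested probe set of Mttp, 1419400_at, ran opposite to 1419399_at (r = -0.82). By 1419400_at the GF pair lay above all other GeneChips, as for Apoa1, so no direction is given for Mttp as a gene. The members were chosen with their differences from GF known, and Pdzk1 lay under the floor on every colonized GeneChip. Its r with Apoa1 therefore reflects the gap to GF, and nothing is read from the likeness among members. Among 6612 candidate genes whose signal spanned at least 2 on the log2 scale, the 5 most like Apoa1 were Tead4 (r = 0.988), Reg3a (0.977), Defb2 (0.973), Pdzk1 (0.971) and 1700029P11Rik (0.97). Tead4 is a transcription factor, Reg3a an antimicrobial lectin and Defb2 a defensin. Reg3a had 952.1 and 819.5 in GF and 42.2 to 160 elsewhere, and in each of the 5 at least 4 of the 6 colonized signals lay under the floor, so that their order is not measured. All 5 passed the filter only through GF, where they were high. Their r with Apoa1 therefore reflects the gap to GF, and nothing is read from it.

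The member least like Apoa1 was Mttp by its brightest probe set, 1419399_at. This rank holds for that probe set only, since 1419400_at of Mttp ran opposite to it. The 5 genes most like 1419399_at were Gsdmcl-ps (r = 0.991), Golga7b (0.981), Slc41a1 (0.977), Zfand1 (0.965) and Chn2 (0.961). All 5 had a lower signal on GeneChip 9128 than on 9129, both of GF. Chn2, for instance, had 56.6 and 1114 in GF and 1227 to 3079 elsewhere. The resemblance thus includes a difference between 2 amplifications of the same pool.

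**Figure D5:**
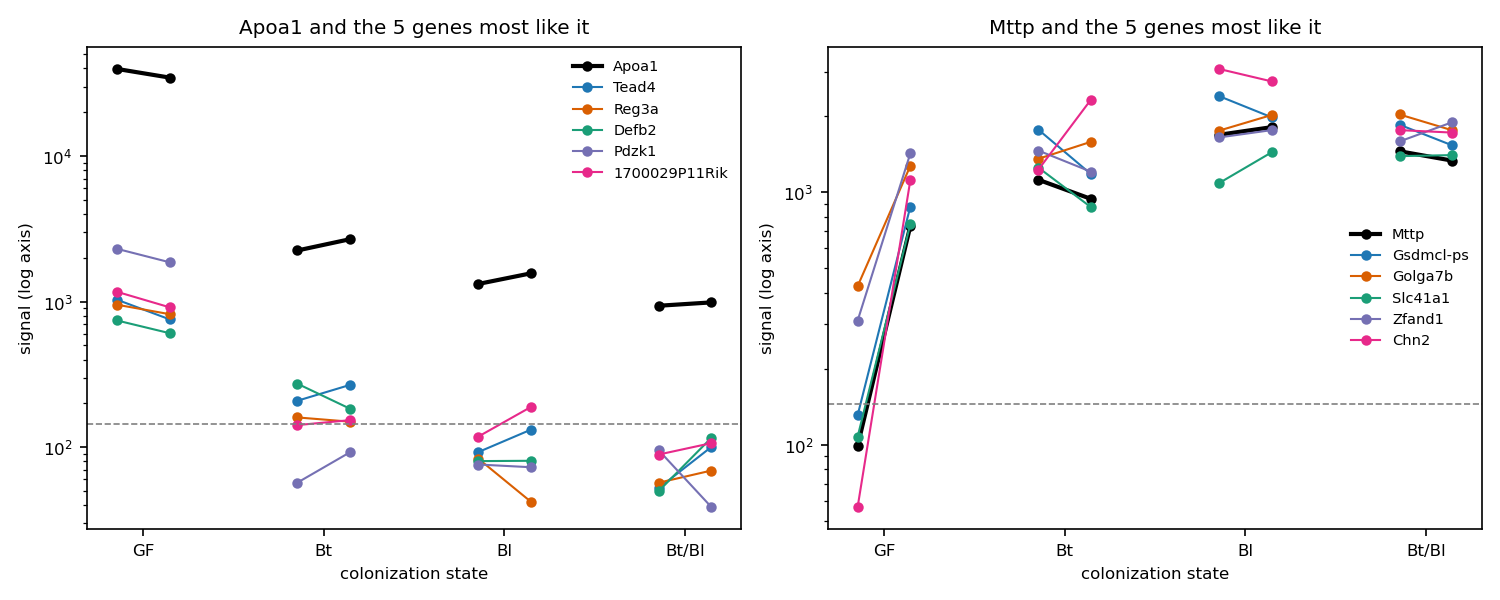
Signals (y axis, log scale) of Apoa1 and of Mttp (black) with the 5 genes whose log2 signals correlate best with each, on the 2 GeneChips of each colonization state (x axis), with lines joining the pair of a state and a dashed line at the floor of 144.7. The genes like Apoa1 drop from GF to near the floor, and the genes like Mttp differ within the GF pair. Likeness to Mttp is by its brightest probe set, and its other tested probe set ran the opposite way.

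The GlycoGeneChip, a custom array of genes of carbohydrate metabolism hybridized with the same 4 states, held no member. Of the listed genes it held Lipa, the lysosomal acid lipase, at 11200 and 5437 in GF, 7744 and 4805 in Bt, 7766 and 7425 in Bl, with Bt/Bl at 5810 and 5823. Its log2 fold changes of -0.36, -0.04 and -0.42 (SE 0.37) had adjusted p of 0.8367, 0.9791 and 0.7861 over 451 probe sets. On the Mouse 430 2.0 GeneChip Lipa had log2 fold changes of 0.55, 0.3 and 0.63 (SE 0.3) and did not pass either.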

How the data were processed

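Total RNA of laser-captured cecal epithelium was amplified and hybridized to the Mouse 430 2.0 GeneChip and the GlycoGeneChip. The deposited values are linear signal intensities for each probe set, computed by the authors in MAS5 (per the labels), without detection calls. They were used as deposited. The 64 control probe sets were left out of the tests, signals were floored at the 25th percentile, log2-transformed and filtered at the median, and all 24865 tested probe sets entered 1 fit in limma 3.58.1 (R 4.3.3; lmFit, eBayes with an intensity trend, 4 residual degrees of freedom). Adjustment within each comparison followed Benjamini and Hochberg. The GlycoGeneChip table was fitted separately in the same way. A gene is represented by its brightest probe set. Of 45101 probe sets 34958 had 1 symbol, 34754 of which matched RefSeq, and 932 had several and were not named. The paper's dChip criteria need probe-level data and were not applied. The fit was tested on simulated data.

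The 10 genes, the lists and the tests were chosen with earlier results of these data known. Named from each list were the called genes and at most 4 per comparison with the largest change, from the marker lists Fabp6, Slc10a2, Adipoq, Plin1 (no probe set) and the 2 brightest genes, and the 5 genes most like Apoa1 and most like the member least like it. Xist, Eif2s3y, Enpep, Mep1a, Mep1b, Retn, Ttr, Alb, Slc5a1, Lct, Rbp2, Slc2a2 and the listed genes given as examples of small differences or of separation from GF (Sar1b, P4hb, Hnf4a, Cdx2, Vil1, Slc9a3r1, Slc27a4, Lipa, Saa1, Mgll, Lpin2, Sort1) were named after their values were seen. Alternatives changed the scaling, the floor, the filter, the variance model or the probe set chosen for a gene, or left out 1 GeneChip.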

Additional observations from a re-analysis of the deposited data

Results flagged for a closer look

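The signals of Apoa4 lay on opposite sides of GF in 2 colonized states, although neither difference passed the threshold. By 1436504_x_at both Bt GeneChips (10119 and 7832) lay above both GF GeneChips (5279 and 3067), and both Bt/Bl GeneChips (1224 and 1124) lay below them, with a log2 fold change of -1.78 for Bt/Bl against GF (SE 0.65, 95% confidence interval -3.17 to -0.39) and 1.15 for Bt against GF (interval -0.25 to 2.54). The difference between these 2 changes equals that between Bt/Bl and Bt, for which limma gave a log2 fold change of -2.92 with an adjusted p of 0.1403. This was noticed among genes chosen with their values known, and by an _x_at probe set, some probes of which may match other transcripts. The other probe set of Apoa4, 1417761_at, was below the filter, and its GF and Bt signals overlapped. It had 42.9 and 421.9 in GF, 118.8 and 1790 in Bt, with Bt/Bl at 41.7 and 39.4. The 2 probe sets correlated with r = 0.41 over the 8 GeneChips.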

How the results depend on the processing

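No paired analysis was possible because the replicate numbers are GeneChip numbers, which the states do not share. Counts of genes called lower than GF changed with the processing, and the cause was not tested. Of the 9 member genes, 2 were called in Bt, with 1 under a floor at the median, no floor, no filter, a filter at the 75th percentile, a fit of only the GeneChips compared or the mean of all tested probe sets, and 0 without an intensity trend. In Bl 3 were called, with 1 under a floor at the median, no filter, the fit of only the GeneChips compared or the mean of probe sets, and 0 without the trend. In Bt/Bl 4 were called, with 2 under median scaling, 75th percentile scaling or a floor at the median, 1 with no filter or the fit of only the GeneChips compared, and 0 without the trend. In Bl and Bt/Bl the settings not named did not all keep the full count. Leaving out 1 GeneChip gave 0 to 2 genes in Bt (2 without 9130, 0 without 9129, otherwise 1), 1 to 3 in Bl (3 without 9135, otherwise 1) and 1 to 3 in Bt/Bl (3 without 9134, 2 without 9129, 9443 or 9135, otherwise 1). With all GeneChips kept, Apoa1 lost its call only without the trend. Over the same settings, Pdzk1 kept its call in Bt and Bl only under median, 75th percentile or quantile scaling. In Bt/Bl Pdzk1 kept it only under quantile scaling or the mean of probe sets. Apob kept its call in Bl only with no floor or the filter at the 75th percentile. Lpl kept its call in Bt/Bl only under quantile scaling, no floor, that filter or the mean of probe sets. These counts and calls describe genes chosen by the same differences and support nothing. The mean of the Mttp probe sets gave log2 fold changes of -0.6, -0.31 and -0.48 in Bt, Bl and Bt/Bl, against 1.66, 2.42 and 2.09 by the brightest.

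The call of Plin2 in Bt was 1 listed gene and became 0 under median scaling, 75th percentile scaling, a floor at the median, no filter, a filter at the 75th percentile, no trend, the fit of only the GeneChips compared and the mean of probe sets. The call of Slc9a3 in Bt/Bl became 0 under both scalings, a floor at the median, no filter, no trend and the fit of only the GeneChips compared. Leaving out 1 GeneChip gave 0 to 1 listed genes in Bt, 0 to 3 in Bl, 0 to 1 in Bt/Bl, 0 to 1 in Bt/Bl against Bt, 0 to 3 in Bt/Bl against Bl and 0 to 1 in Bl against Bt. The counts of 3 were without 9135 of Bl, and the counts of 1 between colonized states without 9130 of Bt or, in Bl against Bt, also without 9135. A fit without the GF GeneChips, chosen after seeing the data, called 0 members in each of the 3 comparisons between colonized states.

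Between colonized states no member was called under any alternative, but some log2 differences changed sign. With the mean of probe sets Apob became 0.06 in Bt/Bl against Bt and 0.68 in Bl against Bt. In Bt/Bl against Bt, Fabp2 became 0.11, 0.1 and 0.19 under median, 75th percentile and quantile scaling. In Bt/Bl against Bl, Apoa4 became 0.1 and 0.02 under median and 75th percentile scaling, Fabp1 0.02 under median scaling and Apoc3 -0.18 under a floor at the median. Leaving out 1 GeneChip gave ranges across 0 of -0.85 to 0.01 for Apoc3 and -0.11 to 0.02 for Fabp2 in Bt/Bl against Bt, of -1.6 to 1.21 for Apoa4, -0.87 to 2.51 for Apoc3 and -0.95 to 0.4 for Fabp1 in Bt/Bl against Bl, and of -2.94 to 0.44 for Apoc3 and -0.55 to 0.26 for Lpl in Bl against Bt. For Lipa on the GlycoGeneChip they were -0.88 to 0.17, -0.56 to 0.48 and -0.95 to 0.1 in Bt, Bl and Bt/Bl against GF. Signals under the floor limit Pdzk1, both Mttp probe sets, Cd36, Apoc3, 1417761_at of Apoa4, 1457554_at of Apob and 1448764_a_at of Fabp1.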
